A study of Caenorhabditis elegans with 6 samples.

Results

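The cytoplasmic ribosomal protein genes of *Caenorhabditis elegans* were examined as targets of 22G-RNAs. The genes were chosen by name from the counted loci, as protein-coding genes whose symbol starts with *rpl-* or *rps-*, together with *rla-0*, *rla-1* and *rla-2*. This rule found 81 genes, 50 of the large and 31 of the small ribosomal subunit, among 22336 counted loci, of which 19725 were protein-coding genes. The rule uses names and biotypes and no measured value, although earlier results of these data were known when it was set. The genes lie on all 6 chromosomes, 25 on I, 10 on II, 18 on III, 18 on IV, 8 on V and 2 on X, and their summed exon lengths run from 236 to 1456 bp.

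Ribosomal proteins assemble with ribosomal RNA into the large subunit, which forms peptide bonds, and the small subunit, which decodes the mRNA. Every growing cell makes them in near-equal numbers, and the germline of an egg-laying worm is rich in their mRNAs. 22G-RNAs, with a length of 22 bases and G as their first base, are made by RNA-dependent RNA polymerases on target transcripts. They are bound by Argonaute proteins, some of which silence their targets (the WAGO proteins) while another, CSR-1, binds 22G-RNAs against many genes that are expressed in the germline. A 22G-RNA count at a ribosomal protein gene is therefore not a measure of that gene's mRNA or protein.

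Small RNAs were sequenced from whole gravid adults, 65 hours after arrested larvae were placed on food, of wild-type animals (strain N2) and of *lotr-1(sam117)* animals (strain RFK1256), in which the whole *lotr-1* coding sequence is deleted. LOTR-1 is a LOTUS and Tudor domain protein of the germ granules that surround germ cell nuclei. There were 3 libraries per genotype, and neither genotype received any further treatment. The deletion is present in every tissue and the libraries hold whole animals, so germline and somatic 22G-RNAs were not separated, and a change in the amount of germline tissue cannot be told apart from a change per cell.

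The libraries held 3150716 to 3829101 22G-RNA counts. At *lotr-1* itself there were 477, 522 and 563 counts in the wild-type libraries, compared with 40, 49 and 60 in the mutant ones, in the direction of the labels. Values were set on a common scale by median-of-ratios size factors, which averaged 1.32 ± 0.144 (SD, n = 3) in wild-type as against 0.776 ± 0.0553 in *lotr-1(sam117)*, although total counts overlapped between genotypes. This choice of scale changes the size of every log2 fold change given below and the direction of many, but not the ratios within a library. Over the 8789 loci with a mean of at least 10 normalised counts, the median log2 fold change was -0.05 with size factors and -0.84 when each library was scaled to its total count. Among marker lists, the summed share of counts at 12 oocyte and eggshell genes was 0.120 to 0.124% in wild-type as against 0.0628 to 0.0655% in *lotr-1(sam117)*. The 6 vitellogenin genes, expressed in the adult intestine, held 0.00514 to 0.00741% and 0.00675 to 0.00796%, and the 31 *msp* genes, expressed in spermatogenesis, held 0.00203 to 0.00248% and 0.00336 to 0.00401%. The *msp* shares rest on few counts, as the median *msp* gene had a mean of 3.34 normalised counts and only 1 reached 10. The part of tissue make-up in the results below was not tested.

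In wild-type animals 22G-RNAs were counted at every ribosomal protein gene, at levels above those of most protein-coding genes but far below the strongest targets. Levels are given as counts per 1000000 counts of the library and kilobase of exon (CPM per kb). They ranged from 7.30 at *rpl-37* to 184 at *rpl-43*, a 25.2-fold span, with a median of 33.9. The median over all protein-coding genes was 0.875, and the ribosomal protein genes stood between the 66.0th and the 97.7th percentile of that distribution. The median was 39.5 over large-subunit and 32.8 over small-subunit genes. Genes of related function had similar wild-type levels per kilobase, with medians of 31.8 over 69 mitochondrial ribosomal protein genes, 40.1 over 41 translation factor genes and 40.7 over 18 ribosome biogenesis genes.

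The 5 large-subunit genes with the highest wild-type levels were *rpl-43* (184 ± 12.7 CPM per kb, SD, n = 3), *rpl-34* (179.7 ± 4.45), *rpl-11.1* (164.3 ± 20.5), *rpl-16* (124.9 ± 3.48) and *rpl-41.2* (88.8 ± 24.2). *rpl-43* and *rpl-34* differed by less than the spread between libraries, as did *rpl-34* and *rpl-11.1*. The 5 highest of the small subunit were *rps-14* (100.2 ± 2.34), *rps-28* (90.5 ± 12.1), *rps-4* (86.8 ± 6.96), *rps-23* (78.2 ± 14.1) and *rps-11* (71.9 ± 8.25), each within the summed spread of its neighbour in that order. The order of the genes was reproducible within a genotype and less alike between genotypes. Spearman's rho over the 81 genes was 0.942 to 0.963 between wild-type libraries, 0.882 to 0.908 between *lotr-1(sam117)* libraries and 0.524 to 0.646 between libraries of different genotype, as a description of libraries whose counts at these genes differed in depth.

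**Figure D1:**
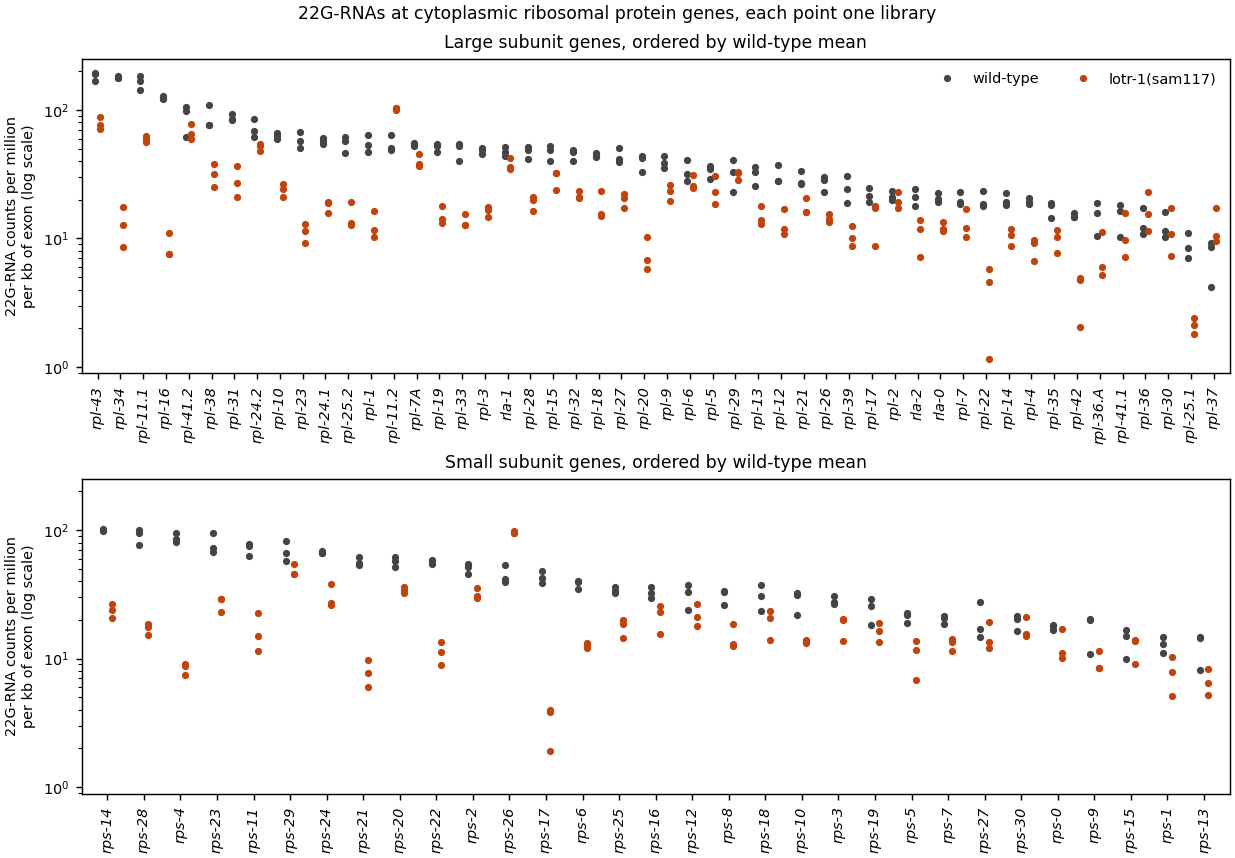
22G-RNA level in CPM per kb of exon (log scale) at each of the 50 large-subunit genes (top) and 31 small-subunit genes (bottom), ordered by wild-type mean, with 1 point per library (grey, wild-type, n = 3; orange, *lotr-1(sam117)*, n = 3). On this scale, which follows total counts, the *lotr-1(sam117)* points lie below the wild-type points at most genes, while those of *rpl-11.2* and *rps-26* lie above them, and those of *rpl-16*, *rpl-34* and *rps-17* lie far below.

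In *lotr-1(sam117)* a smaller part of the 22G-RNA pool was directed at ribosomal protein genes, but most other loci fell as well. With total-count scaling, 6999 of the 8789 loci above the count minimum had a negative log2 fold change and 1790 a positive one. Their median was -0.84, against -0.95 over the ribosomal protein genes above the same minimum. Of all counts in a library, 0.204, 0.209 and 0.202% fell on these genes in wild-type, compared with 0.0934, 0.0971 and 0.0981% in *lotr-1(sam117)*, so the genotypes did not overlap and the ratio of the means was 0.469. In counts the sums were 6439, 7228 and 7753 against 3146, 3700 and 3329. On the size-factor scale the decrease was smaller, from 5401 ± 92.9 to 4369 ± 87.3 normalised counts, a ratio of 0.809. The median gene had 63, 76 and 77 counts in the wild-type libraries, compared with 31, 34 and 32 in the mutant ones, and 3 counts, taken as the floor of detection, were 7.83e-05 to 9.52e-05% of a library.

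This decrease had a similar size in both subunits. The large subunit went from 0.134% ± 0.00347 to 0.0630% ± 0.00171 of all counts, and the small subunit from 0.0716% ± 0.00103 to 0.0332% ± 0.00125, which are ratios of 0.471 and 0.464. Within a library the ratio of large-subunit to small-subunit counts does not depend on the scaling between libraries. It was 1.81, 1.93 and 1.86 in wild-type, compared with 1.89, 1.97 and 1.83 in *lotr-1(sam117)*, with means of 1.87 ± 0.0598 and 1.90 ± 0.0697 that overlapped. The near-equality of the sums rested in part on *rpl-11.2*, a large-subunit gene that rose, and on the other genes with a suffixed name, described below. The 12 genes of those sets are all of the large subunit, so leaving them out changes only the large-subunit sum. Without them the ratio was 1.36, 1.39 and 1.37 in wild-type, compared with 1.15, 1.26 and 1.12 in *lotr-1(sam117)*, with no overlap. The count of the median large-subunit gene over that of the median small-subunit gene went from 1.25 ± 0.0866 to 1.02 ± 0.0690. Without *rpl-11.1* and *rpl-11.2* alone the ratio of sums was 1.66 and 1.55, with overlap. These forms of the ratio were computed after the data were seen.

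Gene by gene, 20 of the 80 ribosomal protein genes with a mean of at least 10 normalised counts had an absolute log2 fold change above 1 with size factors, and 39 had one with total-count scaling. In the DESeq2 fit over all loci, each gene was tested against a 2-fold change and against no change, and a gene was called where the p-value, adjusted by Benjamini-Hochberg over all loci tested, was under 0.1. Unless another setting is named, a call below is that of this fit with size factors. Against a 2-fold change, 2 of the 81 genes were called higher in *lotr-1(sam117)* (2.47%), *rpl-11.2* and *rps-26*, where 8.15% of all tested loci were, and 5 were called lower (6.17%), *rpl-16*, *rpl-34*, *rps-17*, *rps-4* and *rps-21*, where 8.14% were. Against no change, 7 genes were called higher (8.64%) and 27 lower (33.3%), against 20.4% and 22.7% of all tested loci, and 47 were not called. The 7 were *rpl-11.2*, *rps-26*, *rpl-2*, *rpl-6*, *rpl-7A*, *rpl-36* and *rpl-37*. Of these, 2 were still called without wild-type replicate 2, 3 without *lotr-1(sam117)* replicate 1, 3 without *lotr-1(sam117)* replicate 3 (where *rpl-5* was called in addition) and 4 without wild-type replicate 3. With edgeR 13 genes were called lower against a 2-fold change, among them the 5 above, and 16 higher against no change, among them 6 of the 7. The other, *rpl-37*, was not among the loci that edgeR tested. edgeR tested a different, filtered set of loci. Its shares over all loci are not given here, so these counts cannot be set against the DESeq2 shares above. Standard errors (SE) of the log2 fold changes had a median of 0.285 and reached 0.715, so that changes well under 2-fold were not detectable at many of these genes.

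The median log2 fold change, over the 80 genes with a mean of at least 10 normalised counts, was -0.16, with quartiles of -0.79 and 0.23, against -0.05, with quartiles of -0.79 and 0.51, over all loci above the same minimum. *rpl-25.1*, with a mean of 8.12 normalised counts, fell below the minimum. The median was -0.27 over 49 large-subunit genes and -0.07 over 31 small-subunit genes. Against no change, 6 large-subunit genes rose and 18 fell, and in the small subunit *rps-26* rose and 9 genes fell. edgeR called *rps-0*, *rps-15*, *rps-29* and *rps-30* higher as well. Against a 2-fold change, 1 large-subunit gene rose (2.00%) and 2 fell (4.00%). In the small subunit 1 rose (3.23%) and 3 fell (9.68%), against 8.15% and 8.14% of all tested loci.

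When libraries were scaled to their total counts, no ribosomal protein gene was called higher against a 2-fold change and 22 were called lower, where 4.26% and 20.0% of all loci were. By DESeq2 the count of higher genes was 0 also at an unadjusted p under 0.05, while edgeR with TMM factors called 2. Against no change *rpl-11.2* and *rps-26* still rose and 60 genes fell, where 9.22% and 46.7% of all loci did. The medians were then -1.06 over large-subunit and -0.85 over small-subunit genes, against -0.84 over all loci.

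**Figure D2:**
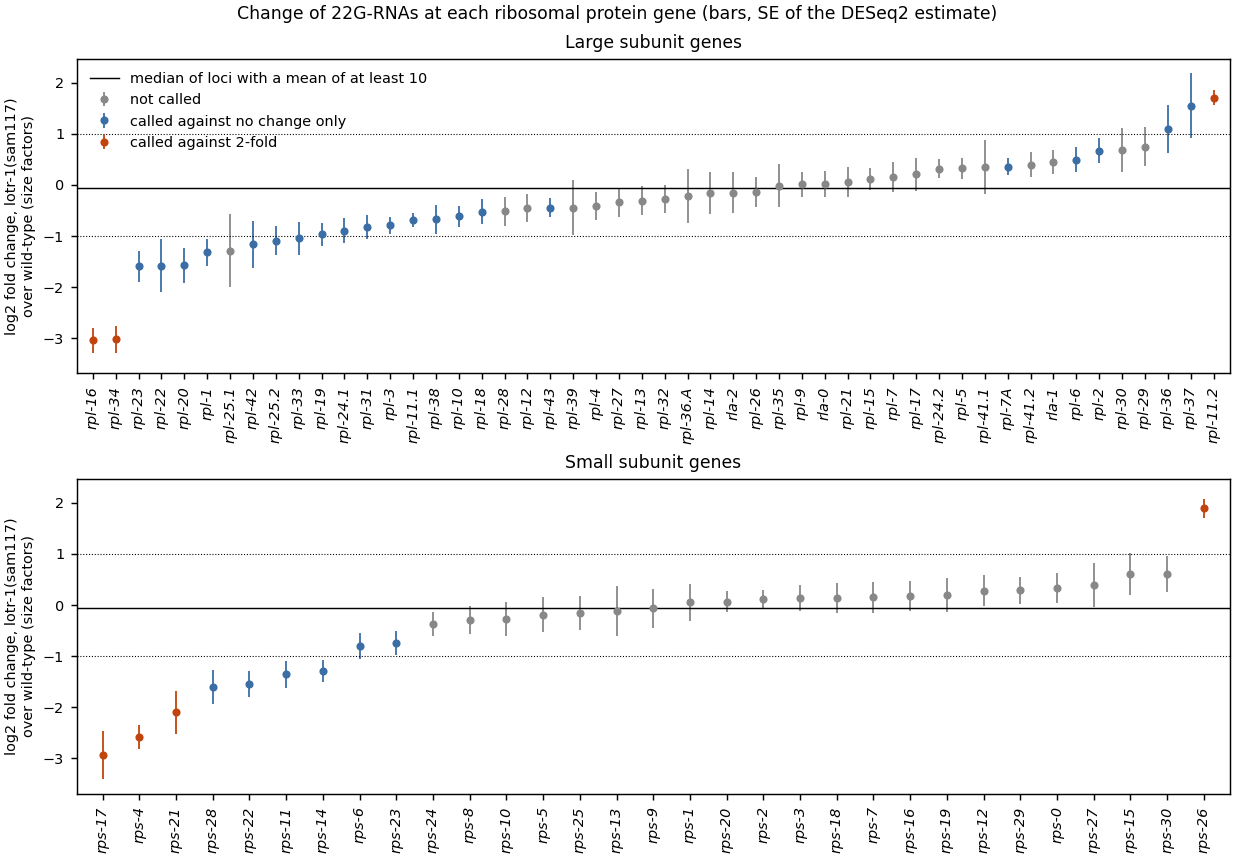
Log2 fold change of 22G-RNA counts, *lotr-1(sam117)* over wild-type with size factors, for each large-subunit gene (top) and small-subunit gene (bottom), ordered by value, with bars for the SE of the DESeq2 estimate from 3 libraries per genotype. The solid line is the median of all loci with a mean of at least 10 (-0.05) and dotted lines mark a 2-fold change. The 5 genes called lower against 2-fold lie between -3.04 (*rpl-16*) and -2.09 (*rps-21*), and the highest values are those of *rps-26* (1.89), *rpl-11.2* (1.71) and *rpl-37* (1.55, called against no change only). *rpl-37* reached a mean of 10 only through its *lotr-1(sam117)* counts.

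Of the 5 genes called lower, *rpl-16*, *rpl-34* and *rps-4* were among the strongest wild-type targets of their subunit. *rpl-16* (III, 3502841 to 3503604, minus strand), which encodes the worm counterpart of human RPL13A, had 270, 281 and 315 counts in the wild-type libraries, compared with 17, 28 and 17 in the mutant ones. The genotypes were far apart, at 218.6 ± 9.84 and 26.4 ± 6.08 normalised counts. This was -3.04 on the log2 scale (SE 0.239, adjusted p = 2.07e-16 by DESeq2 against 2-fold). *rpl-34* (IV, 12268995 to 12269490, plus strand), which encodes a large-subunit protein found in eukaryotes and archaea, had 205, 227 and 261 counts in the wild-type libraries, compared with 22, 12 and 16 in the mutant ones. Its log2 fold change was -3.02 (SE 0.267, adjusted p = 6.21e-13 by DESeq2 against 2-fold). On the fitted scale wild-type values were 8.23 and 8.09 times the mutant values.

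In the small subunit the same was seen at *rps-4* and *rps-17*. *rps-4* (IV, 7083696 to 7084682, minus strand) had 250, 235 and 273 counts in the wild-type libraries, compared with 21, 28 and 26 in the mutant ones. This was -2.57 on the log2 scale (SE 0.231, adjusted p = 1.47e-10 by DESeq2 against 2-fold). Its exons overlap those of Y43B11AR.3 on the same strand by 21 bp, where reads could be assigned to either, and that neighbour had a log2 fold change of 0.27 (SE 0.352). *rps-17* (I, 6220093 to 6220764, minus strand) was a weaker target, with 70, 62 and 75 counts in the wild-type libraries, compared with 3, 7 and 6 in the mutant ones, and its log2 fold change was -2.93 (SE 0.473, adjusted p = 3.86e-04 by DESeq2 against 2-fold). Its lowest library was at the floor of 3 counts.

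*rps-21* (III, 7189178 to 7189631, minus strand) was the least secure of the 5. It had 52, 59 and 72 counts in the wild-type libraries, compared with 10, 7 and 8 in the mutant ones, with no overlap. The log2 fold change was -2.09 (SE 0.420, adjusted p = 0.0611 by DESeq2 against 2-fold), and the call was lost when any single library other than *lotr-1(sam117)* replicate 1 was left out, with adjusted p between 0.151 and 0.325. The decrease itself was called against no change (DESeq2 adjusted p = 3.27e-06). With total-count scaling all 5 genes were called lower against a 2-fold change, with log2 fold changes from -3.83 at *rpl-16* to -2.88 at *rps-21*.

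*rpl-11.2* and *rps-26*, in contrast, rose. *rpl-11.2* (X, 2241738 to 2242618, minus strand) encodes a protein of the large subunit that binds the 5S ribosomal RNA. It had 147, 128 and 137 counts in the wild-type libraries, compared with 246, 291 and 258 in the mutant ones, or 104.9 ± 17.5 and 341.3 ± 6.70 normalised counts. The log2 fold change was 1.71 (SE 0.144, adjusted p = 8.56e-06 by DESeq2 against 2-fold). *rps-26* (I, 14759930 to 14760626, plus strand) encodes a small-subunit protein near the exit of the mRNA channel. It had 74, 60 and 70 counts in the wild-type libraries, compared with 141, 164 and 141 in the mutant ones, or 51.9 ± 9.64 and 191.5 ± 3.91 normalised counts, and its log2 fold change was 1.89 (SE 0.191, adjusted p = 3.03e-05 by DESeq2 against 2-fold). Raw counts of both genes were higher in each mutant library than in any wild-type library. Scaled to total counts, these values were 0.92 and 1.10, and they passed the test against no change by DESeq2 (adjusted p = 1.23e-09 and 6.54e-08) but not that against 2-fold.

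The share of ribosomal protein counts that each gene took within its library uses no size factors. The genes below were chosen by their calls on these same counts, so their shares restate the shifts and are no separate support. *rpl-16* went from 4.05 to 0.603%, *rpl-34* from 3.23 to 0.501% and *rps-4* from 3.55 to 0.735%, while *rpl-11.2* went from 1.94 to 7.81% and *rps-26* from 0.961 to 4.38%. Together the 5 genes called lower went from 12.7% ± 0.624 to 2.24% ± 0.0679 of ribosomal protein counts, and the 2 called higher from 2.90% ± 0.461 to 12.2% ± 0.181. The other 74 genes held 84.4% ± 1.02 and 85.6% ± 0.231, with overlap between the genotypes.

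**Figure D3:**
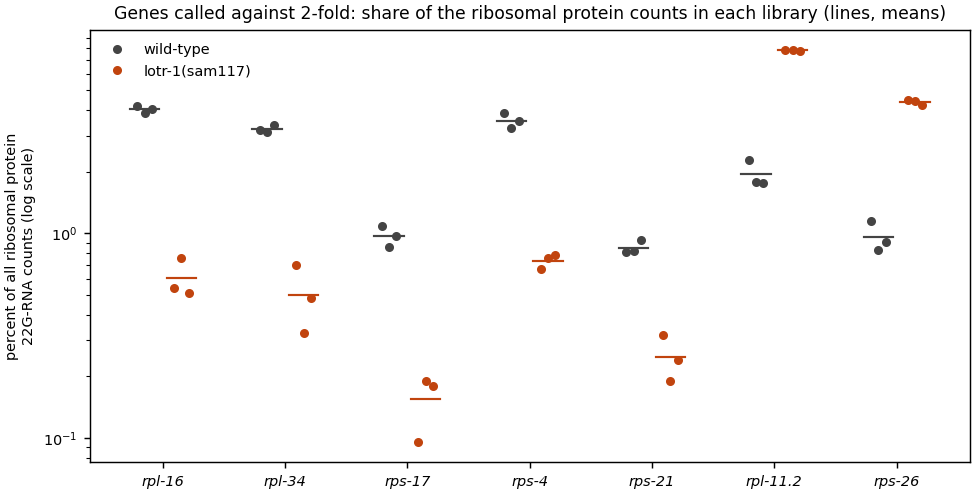
Share of each library's ribosomal protein 22G-RNA counts (percent, log scale) at the 7 genes called against a 2-fold change, with 1 point per library (grey, wild-type, n = 3; orange, *lotr-1(sam117)*, n = 3) and lines at the means. The genes were chosen by calls on these same counts, and no gene has overlapping genotypes. The 5 genes on the left are lower and *rpl-11.2* and *rps-26* higher in *lotr-1(sam117)*.

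The remaining strong targets of the small subunit also fell, though by less than these 5. *rps-14* had 163, 171 and 196 counts in the wild-type libraries, compared with 41, 40 and 46 in the mutant ones. This was -1.29 on the log2 scale (SE 0.214, adjusted p = 9.63e-09 by DESeq2 against no change). *rps-11* and *rps-28* had -1.36 (SE 0.261) and -1.60 (SE 0.338), and *rps-23*, whose protein lies at the decoding centre, had -0.74 (SE 0.237). All of these were called against no change and none against 2-fold by DESeq2 with size factors. Against 2-fold, edgeR called *rps-11* (adjusted p = 0.0568), *rps-14* (0.0798) and *rps-28* (0.0166), and DESeq2 with total-count scaling called all 4. *rpl-43*, the strongest wild-type target per kilobase, fell from 165, 184 and 179 to 66, 92 and 71 counts, which was -0.44 (SE 0.186) with size factors (DESeq2 adjusted p = 0.0448 against no change). *rpl-41.2* had 54, 103 and 106 counts in the wild-type libraries, compared with 56, 70 and 74 in the mutant ones, and its libraries overlapped after scaling (0.39, SE 0.244, not called by DESeq2 but called higher against no change by edgeR).

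Across all 81 genes a higher wild-type level per kilobase went with a lower log2 fold change (Spearman's rho = -0.45). The wild-type level enters both quantities, so this is a description only. Exon length showed no such relation with the log2 fold change (rho = -0.03).

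At the upper end of the ranking, *rpl-37*, *rpl-36* and *rpl-29* followed *rps-26* and *rpl-11.2*, but from few counts. *rpl-37* had a wild-type mean of 5.32 normalised counts and passed the minimum mean of 10 only through its mutant libraries, so its rank is no support for a rise. *rpl-37* had 8, 4 and 9 counts in the wild-type libraries, compared with 16, 11 and 9 in the mutant ones (1.55, SE 0.628), and *rpl-36* had 19, 13 and 16 against 18, 15 and 27 (1.09, SE 0.464). Both were called against no change with size factors (DESeq2 adjusted p = 0.0368 and 0.0492), and neither was with total-count scaling (0.349 and 0.639). *rpl-29* had 31, 19 and 30 counts against 26, 26 and 27, or in log2 terms a change of 0.75 (SE 0.379). It was not called in the fit above, but was called higher against no change by edgeR, with a filter of 10 counts in 3 libraries, with size factors from loci of at least 100 counts and without wild-type replicate 1. The raw counts of these 3 genes overlapped between the genotypes or met at their limits. *rpl-36* (III, 7180251 to 7180647, plus strand) lies less than 1 kb from *rps-14* (III, 7178991 to 7179588, minus strand), so that neighbouring genes on opposite strands had log2 fold changes of opposite sign.

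The ribosomal stalk, the flexible arm of the large subunit that recruits elongation factors, is formed by the acidic P proteins encoded by *rla-0*, *rla-1* and *rla-2*. *rla-0* had 63, 73 and 89 counts in the wild-type libraries, compared with 41, 45 and 47 in the mutant ones, *rla-1* had 61, 79 and 80 against 52, 60 and 63, and *rla-2* had 30, 28 and 42 against 18, 24 and 11. The log2 fold changes were 0.02 (SE 0.255), 0.44 (SE 0.239) and -0.15 (SE 0.408). None was called in the fit above, while *rla-1* was called higher against no change by edgeR, with the filter of 10 counts and with size factors from loci of at least 100 counts. Scaled to total counts, the values were -0.77, -0.35 and -0.94, of which those of *rla-0* and *rla-2* passed the test against no change.

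In worms a few ribosomal proteins are named with a suffix, and 4 pairs share a name up to the point. The ratio within a pair did not overlap between genotypes for *rpl-11* and *rpl-24*. *rpl-11.1* (V, 3585312 to 3586064, minus strand) fell from 293, 413 and 421 to 138, 140 and 131 counts. This was -0.68 on the log2 scale (SE 0.139, adjusted p = 4.67e-06 by DESeq2 against no change), while *rpl-11.2* rose. Within a library the ratio of *rpl-11.2* to *rpl-11.1* was 0.502, 0.310 and 0.325 in wild-type, compared with 1.78, 2.08 and 1.97 in *lotr-1(sam117)*, so the gene with more 22G-RNAs in the pair was exchanged. On the size-factor scale the sum of both rose from 387.3 ± 16.7 to 517.4 ± 3.75 normalised counts. Relative to library totals the direction was the opposite, and the sum of both fell. Mean levels went from 164.3 in wild-type to 59.3 CPM per kb in *lotr-1(sam117)* at *rpl-11.1*. At *rpl-11.2* they went from 54.5 to 102.8, a smaller change. The direction of the sum therefore depends on the scale, while the ratio within a library does not.

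*rpl-24.1* fell from 98, 114 and 114 to 35, 33 and 35 counts. This was -0.89 on the log2 scale (SE 0.251, adjusted p = 1.41e-03 by DESeq2 against no change). Its partner *rpl-24.2* had 114, 173 and 152 counts in the wild-type libraries, compared with 95, 117 and 108 in the mutant ones, for which size factors gave 0.32 (SE 0.182, not called). It was called higher against no change under the same 3 alternatives as *rla-1*, and lower with total-count scaling (-0.47). The ratio of *rpl-24.2* to *rpl-24.1*, which does not depend on the scaling, was 1.16, 1.52 and 1.33 in wild-type, compared with 2.71, 3.55 and 3.09 in *lotr-1(sam117)*.

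For the other pairs the ratio within a library overlapped between genotypes. *rpl-25.2* fell from 72, 105 and 108 to 32, 24 and 22 counts (-1.09, SE 0.288, DESeq2 adjusted p = 6.41e-04 against no change), and *rpl-25.1* had 11, 19 and 16 counts against 4, 4 and 3 (-1.29, SE 0.715), which was not called in the fit above but was called lower against no change by edgeR, with the filter of 10 counts and with total-count scaling. *rpl-41.1* had 17, 21 and 13 counts against 8, 20 and 11 (0.35, SE 0.521, not called). It lies less than 1 kb from *rpl-41.2* on the same strand of chromosome I. The log2 ratio within a pair changed by 2.39 for *rpl-11*, 1.22 for *rpl-24*, 0.18 for *rpl-25* and 0.13 for *rpl-41* (second over first member, *lotr-1(sam117)* minus wild-type). In an exact two-sided permutation test over the libraries, the p-values were 0.1, 0.1, 0.4 and 0.9, and 0.2, 0.2, 0.533 and 0.9 after Benjamini-Hochberg adjustment over the 4 pairs, and 0.1 is the smallest that 3 libraries against 3 can give. An adjusted p-value under 0.1 was therefore not possible for any pair, and this test cannot decide whether a ratio changed. A read that aligned equally well to both members of a pair was placed at random, and how many reads this concerned was not tested.

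*rpl-7* and *rpl-7A*, and *rpl-36* and *rpl-36.A*, share only a number. *rpl-7* had 49, 64 and 57 counts in the wild-type libraries, compared with 28, 37 and 46 in the mutant ones (0.15, SE 0.296, not called, and called lower against no change with total-count scaling). *rpl-7A* had 145, 165 and 173 against 132, 119 and 110 (0.35, SE 0.168, DESeq2 adjusted p = 0.0861 against no change), a rise that turned to -0.44 with total-count scaling. *rpl-36.A* had 13, 26 and 24 against 8, 17 and 7 (-0.21, SE 0.527, not called, and called lower against no change with total-count scaling).

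**Figure D4:**
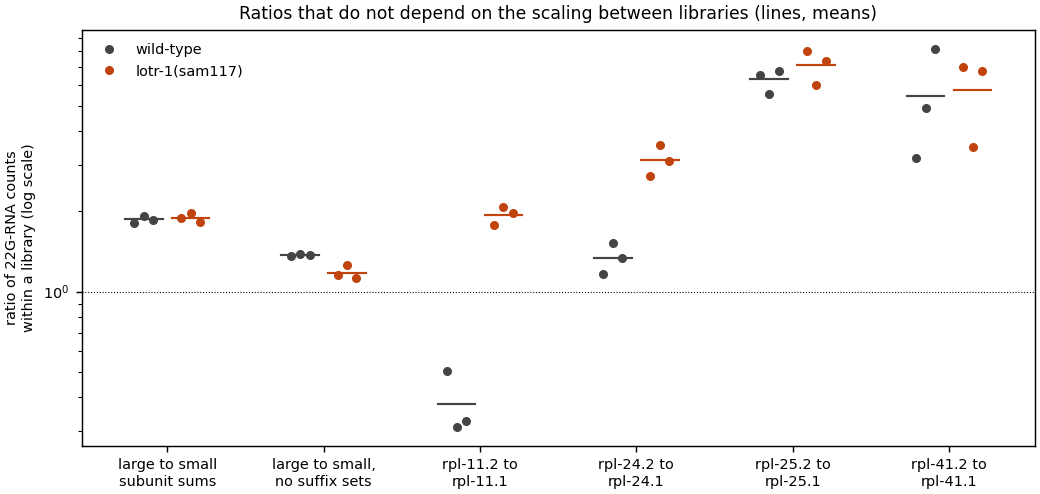
Ratios of 22G-RNA counts within a library (log scale): summed large-subunit to small-subunit counts, with all genes and without the 12 genes of suffix sets, and the 4 pairs of suffixed genes. Each point is 1 library (grey, wild-type, n = 3; orange, *lotr-1(sam117)*, n = 3), lines are means, and the dotted line is a ratio of 1. The ratio of *rpl-11.2* to *rpl-11.1* lies below 1 in wild-type and above 1 in *lotr-1(sam117)*, that of *rpl-24.2* to *rpl-24.1* is higher in *lotr-1(sam117)*, and the subunit ratio over all genes overlaps.

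Genes were also grouped by features that the rule did not use, and the medians of these groups are given as a description. The 13 genes that hold a small nucleolar RNA gene in an intron had a median log2 fold change of 0.11, and the other genes one of -0.21. The 9 genes whose exons overlap a gene on the opposite strand had a median of -0.15, against -0.16 for the rest. The 4 genes with an exon overlap on the same strand (*rpl-5*, *rpl-7*, *rpl-23* and *rps-4*) had a median of -0.72, and the 11 suffix-set genes above the minimum one of 0.32. Counting used strand, so opposite genes do not share reads. By chromosome the medians were 0.02 on I, -0.36 on II, 0.03 on III, -0.33 on IV and -0.13 on V. Of the 5 genes called lower against a 2-fold change, 2 lie on III, 2 on IV and 1 on I.

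Genes of related pathways are given for comparison. Of 69 mitochondrial ribosomal protein genes, 4 were called against a 2-fold change, all lower (5.80%, against 8.14% of all loci), *mrpl-46* (log2 fold change -2.04, SE 0.177), *mrpl-36* (-1.75, SE 0.193), *mrpl-35* (-1.69, SE 0.183) and *mrps-18A* (-1.68, SE 0.244). The list had a median of -0.20, and against no change 22 fell (31.9%, against 22.7% of all loci) and 4 rose (5.80%, against 20.4%). The 4 were *mrps-14*, *mrpl-2*, *mrpl-11* and *mrps-18.C*, each with a negative value under total-count scaling. Its share of all counts went from between 0.236 and 0.242% to between 0.110 and 0.111%. Of 41 translation factor genes, *pab-2*, a poly(A)-binding protein, was called higher (2.10, SE 0.0513) and *iff-2*, the initiation factor now termed eIF5A, lower (-2.04, SE 0.0750), with a median of -0.07 over the list. Against a 2-fold change each call was 2.44% of the list, where 8.15% and 8.14% of all loci were called higher and lower. Against no change *ife-5*, *eif-3.I* and *eef-1A.2* rose as well (9.76% higher with *pab-2*, against 20.4% of all loci) and 11 factors fell (26.8%, against 22.7%). With total-count scaling these 3 were not called higher, with values of -0.0162, -0.31 and 0.0256, and 36 factors fell against no change (87.8%, against 46.7% of all loci). *pab-2* remained called with total-count scaling, at 1.31. Of 18 ribosome biogenesis genes, 4 were called, against no change only (5.56% higher and 16.7% lower, where 20.4% and 22.7% of all loci were). *fib-1*, the nucleolar methyltransferase fibrillarin, rose (0.27, SE 0.0811, and -0.51 with total-count scaling) while *pro-2*, *nol-9* and *nol-14* fell, with a median of 0.02. The genes named from these lists were chosen after their values were seen.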

How the data were processed

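Counts of 22G-RNAs per locus, as deposited by the authors, were used without change for 6 libraries, 3 per genotype, grouped by the labels. The authors had removed adapters (cutadapt 2.4), aligned reads to WBcel235/ce11 (Bowtie 1.2.2, 1 mismatch, 1 random best position) and counted reads of 22 bases with a 5' G antisense to exons or transposons (featureCounts 1.6.2, Ensembl 96). Symbols, positions and exon lengths came from Ensembl 115 on the same assembly. Libraries held 3150716 to 3829101 counts, which are not sequencing depth. Whether replicates were separate cultures is not stated, so p-values measure the spread between these libraries. The floor of 3 counts covers counting error only, while the SD and SE values also hold the spread between libraries.

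All loci were fitted together with DESeq2 1.42.0 in R 4.3.3, by a Wald test against an absolute log2 fold change of 1 (the study's limits were 2-fold at 10% FDR) and against 0, without shrinkage. edgeR 4.0.16 was an alternative. The script was tested on simulated counts for 22336 loci of this comparison. There the test against 2-fold recovered 99% of 8-fold and 0% of 1.5-fold changes, and that against no change 69% of 1.5-fold changes. These changes were placed only at well-counted loci, with a fixed low dispersion and no general shift between genotypes. The percentages are therefore not detection rates for the ribosomal protein genes.

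Members and lists were chosen with earlier results of these data known. Named genes were those called against 2-fold, the 5 strongest wild-type targets per subunit, the 5 largest and 5 smallest log2 fold changes, the *rla* genes and the suffix sets, 28 in all. Read positions and sequences were not analysed here.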

Additional observations from a re-analysis of the deposited data

How the results depend on the processing

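The scale between libraries changed most. With total-count scaling, the ribosomal protein genes called against a 2-fold change numbered 0 higher and 22 lower, where 4.26% and 20.0% of all loci were. Against no change they numbered 2 and 60, where 9.22% and 46.7% of all loci were called. The medians were -1.06 over the large and -0.85 over the small subunit. The sign then turned for *rla-0* (-0.77), *rla-1* (-0.35), *rpl-24.2* (-0.47), *rpl-29* (-0.0403), *rpl-41.1* (-0.44), *rpl-41.2* (-0.40), *rpl-7* (-0.63) and *rpl-7A* (-0.44), and with TMM factors that of *rla-0* (-0.0311). edgeR called 13 genes lower against a 2-fold change and 16 higher against no change, counts given without its shares over all loci. A 1% FDR limit left 2 higher against no change by DESeq2. The cause was not tested. Leaving out 1 library gave 2 to 7 genes higher and 24 to 26 lower against no change, 2 higher and 4 to 5 lower against a 2-fold change, and log2 fold changes of -0.0416 to 0.0695 at *rla-0*, -0.36 to 0.0883 at *rla-2*, -0.64 to 0.00267 at *rpl-36.A*, -0.0223 to 0.58 at *rpl-41.1* and -0.0533 to 0.29 at *rpl-7*. Of the 28 named genes' values, 156 of 168 with 1 library left out and 200 of 222 under the other settings kept their direction and their side of the 2-fold test. The other settings were uneven. With total-count scaling only 11 of 28 were kept, while 8 changed sign, 7 gained a call against 2-fold and 2 lost theirs.

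Over genes with a mean of at least 100 normalised counts the medians were -0.0638 for the large and 0.12 for the small subunit, and without the genes called against 2-fold the small-subunit median was 0.0526. With 1 library left out it ranged from -0.0531 to 0.0301. The subunit ratio without the *rla* genes was 1.80 for wild-type and 1.79 for the mutant, 1.96 in wild-type without the called genes, 1.97 in *lotr-1(sam117)* without the highest gene of each subunit, 1.37 and 1.18 without suffix sets, and 1.25 and 1.02 for median genes. The mutant share over the wild-type share was 0.495 for all, 0.498 for large-subunit and 0.491 for small-subunit genes with transposons left out of the total, and 0.426 for all and 0.398 for large-subunit genes without suffix sets. The settings without called genes, without suffix sets and with median genes were chosen after seeing the data.

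Libraries of the same replicate number did not deviate together (Pearson's r = 0.008, -0.013 and 0.032 over 4070 loci), so the numbers were not taken as pairs. A replicate block gave 4 genes higher and 24 lower against no change and 2 and 4 against 2-fold, where *rps-21* was no longer called (adjusted p = 0.195). Leaving out genes whose sequence is not unique in the genome was not run.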
